A study of Mus musculus with 167 samples.

Results

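Cells that had turned on the tdTomato reporter and surface CD45 3 days after mouse fibroblasts received Spi1 (PU.1), Irf4 and Prdm1 were compared with the fibroblasts they came from. These cells are called PIP d3 here, after the cocktail's name, and the fibroblasts C9a.MEF. The libraries were chosen by title and sort label alone: 3 libraries of PIP d3 and 4 of C9a.MEF, 7 of the 167 bulk RNA libraries of the series. Both groups are mouse embryonic fibroblasts of the C9a.MEF line, double homozygous for Clec9a(Cre/Cre) and Rosa26(tdTomato/tdTomato), in which Cre made from the Clec9a locus switches on tdTomato. PIP d3 cells were transduced with lentivirus carrying Pu.1, Irf4 and Prdm1, collected on day 3 and sorted as live, DAPI-negative tdT+CD45+ cells. C9a.MEF cells were not transduced, carry no time label and were sorted as live tdT-CD45- cells. Later PIP cells of the same gate on day 6 and day 9 (4 libraries each) were used for the time course. Day 3 cells of the same gate that received PIB (Spi1, Irf8 and Batf3, 4 libraries) or SII (Spib, Irf8 and Ikzf2, 4 libraries) were used for the comparison of cocktails. All were grown on gelatin in DMEM with 10% serum, and RNA came from 5000 sorted cells per extraction. The cocktail, the virus, the days in culture and the sort gate all differ between PIP d3 and C9a.MEF, so their parts in any difference cannot be told apart.

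PU.1 is the ETS-family factor that opens myeloid enhancers and sets the dose for macrophage and dendritic cell fates. IRF4 binds DNA weakly alone and joins PU.1 on composite ETS-IRF elements; in the mouse it is needed by type 2 conventional dendritic cells (cDC2), which take up antigen, carry lectins such as CD209a and prime CD4 T cells. Blimp-1, the product of Prdm1, is a zinc-finger repressor best known from plasma cells and is also made by dendritic cells and macrophages. Type 1 cells (cDC1) rest on IRF8 and BATF3 instead and carry XCR1 and CLEC9A.

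The composite element can be read as GGAANNGAA and the lone PU.1-type ETS site as GAGGAAGT. Both were searched on both strands from 250 bases before to 50 bases after the start site in the RefSeq promoter table (GRCm38.p6), together with AGNGAAAG, a Blimp-1-type motif. The following 5 promoters belong to raised genes and hold GGAANNGAA, whose match is in capitals. All printed promoters were picked from the listed genes for a large fitted rise at 10 CPM or more and for holding the motif. They were not picked by function. Lower-strand matches read as the reverse complement, as in Ctss, and the Ctss match overlaps a GAGGAAGT match on the same strand.
Ctss promoter, chr3:95526536-95526835, plus strand: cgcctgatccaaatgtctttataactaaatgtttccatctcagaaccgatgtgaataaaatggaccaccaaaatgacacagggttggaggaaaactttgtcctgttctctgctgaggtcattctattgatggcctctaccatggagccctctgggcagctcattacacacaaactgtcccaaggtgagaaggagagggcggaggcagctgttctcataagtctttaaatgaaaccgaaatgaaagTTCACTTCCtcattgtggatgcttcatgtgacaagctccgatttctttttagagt
Timd4 promoter, chr11:46810549-46810848, plus strand: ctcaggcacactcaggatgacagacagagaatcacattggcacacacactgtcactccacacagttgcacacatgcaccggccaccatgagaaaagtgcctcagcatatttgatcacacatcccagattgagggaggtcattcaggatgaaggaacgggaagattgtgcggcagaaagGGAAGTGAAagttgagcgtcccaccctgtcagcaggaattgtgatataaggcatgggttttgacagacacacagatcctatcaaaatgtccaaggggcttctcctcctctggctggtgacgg
Cd209a promoter, chr8:3748935-3749234, minus strand: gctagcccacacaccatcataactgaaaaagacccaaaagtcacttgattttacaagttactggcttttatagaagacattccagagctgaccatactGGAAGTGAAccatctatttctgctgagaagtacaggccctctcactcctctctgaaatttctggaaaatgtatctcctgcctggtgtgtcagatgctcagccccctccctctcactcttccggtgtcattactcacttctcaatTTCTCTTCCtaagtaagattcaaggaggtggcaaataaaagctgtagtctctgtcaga
Ccr2 promoter, chr9:124101933-124102232, plus strand: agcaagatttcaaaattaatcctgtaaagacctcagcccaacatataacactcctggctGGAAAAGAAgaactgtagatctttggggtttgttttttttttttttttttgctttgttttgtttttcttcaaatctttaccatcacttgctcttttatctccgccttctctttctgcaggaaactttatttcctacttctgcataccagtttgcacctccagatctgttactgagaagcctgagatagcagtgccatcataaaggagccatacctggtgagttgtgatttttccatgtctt
Ccl8 promoter, chr11:82114935-82115234, plus strand: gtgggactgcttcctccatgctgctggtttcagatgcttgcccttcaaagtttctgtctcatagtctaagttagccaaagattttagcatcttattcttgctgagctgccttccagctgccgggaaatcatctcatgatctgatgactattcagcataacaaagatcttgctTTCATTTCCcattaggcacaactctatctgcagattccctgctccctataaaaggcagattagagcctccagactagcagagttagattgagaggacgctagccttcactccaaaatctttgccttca
A further 2 promoters, of a subunit of cytokine receptors and of the leukocyte phosphatase SHIP1, hold GAGGAAGT in capitals.
Csf2rb2 promoter, chr15:78305672-78305971, minus strand: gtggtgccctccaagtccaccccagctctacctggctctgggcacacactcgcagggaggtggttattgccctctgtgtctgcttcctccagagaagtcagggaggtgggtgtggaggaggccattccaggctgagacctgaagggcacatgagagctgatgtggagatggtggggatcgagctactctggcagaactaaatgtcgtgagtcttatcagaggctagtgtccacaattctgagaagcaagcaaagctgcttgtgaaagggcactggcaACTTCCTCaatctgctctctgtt
Inpp5d promoter, chr1:87620062-87620361, plus strand: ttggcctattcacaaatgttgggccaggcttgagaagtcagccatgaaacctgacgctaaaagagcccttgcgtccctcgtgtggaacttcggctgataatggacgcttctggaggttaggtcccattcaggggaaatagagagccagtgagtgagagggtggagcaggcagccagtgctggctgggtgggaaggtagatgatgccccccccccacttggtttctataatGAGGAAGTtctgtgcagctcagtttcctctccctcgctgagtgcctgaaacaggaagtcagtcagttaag
Of the 15894 genes tested, 10684 had a promoter in the table. GGAANNGAA was found in 8.24% of all 32851 promoters in the table, in 7.25% of the promoters of genes tested, in 8.91% of the promoters of genes that rose and in 6.24% of those of genes that fell. GAGGAAGT was found in 3.2% of all promoters, in 2.9% for genes tested, in 4.49% for genes that rose and in 1.92% for genes that fell. Among the 194 promoters of genes raised at least 16-fold, 11.9% held GGAANNGAA and 11.9% held GAGGAAGT. AGNGAAAG was found in 8.63% of all promoters, in 7.88% for genes tested, in 9.23% for genes that rose and in 9.18% for genes that fell. These matches describe letters, not binding.

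Levels below are CPM, a library's read counts scaled to its size with TMM factors, and are not corrected for gene length, so they compare libraries and not genes. PIP d3 replicate 3 stood apart from replicates 1 and 2. Its counts differed from theirs by a chi-square of 55.2 and 42.6 per degree of freedom, against 7.46 between replicates 1 and 2 and 2.83 to 4.04 among the fibroblast pairs. Ptprc, which encodes CD45, was at 87.6, 86.1 and 12.8 CPM in PIP d3 replicates 1, 2 and 3. Mitochondrial genes took 8.06, 8.31 and 5.37% of their counts, against 4.24 to 4.88% in C9a.MEF. Of 161 listed genes that rose, replicate 3 was the lowest PIP d3 library in 134 (83.2%), and of 176 that fell, it was the highest in 125 (71%). The 34 matrix genes summed to 12600, 13100 and 20900 CPM in PIP d3 and to 43800 to 47200 CPM in C9a.MEF, replicate 3 being the highest PIP d3 library. Values without it are therefore given for most counts and calls that changed. Among the other groups, SII replicate 2 had 1.28 CPM of Ptprc against 99.2 to 318 CPM in the other 3 SII libraries, which goes against its CD45+ label. PIP d6 replicate 4 had 578 CPM of Col3a1, against 26.8 to 44.1 CPM in its group. PIB replicates 1 and 2 differed from 3 and 4 by 42.7 to 68.2 per degree of freedom. Totals were 8795958 to 20409369 counts in PIP d3, 10878799 to 12968294 in C9a.MEF and 4783562 to 20409369 over the 23 libraries. Nothing in the labels says whether replicates were separate cultures, so p-values measure the spread between these samples.

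Many genes changed between the fibroblasts and the sorted cells, in both directions: leukocyte receptors, signalling genes, lysosomal proteases and some chemokines rose, and matrix, mesenchymal and cell cycle genes fell. A gene counted as changed where its fold was 2 or more and edgeR's adjusted p was below 0.05. Of 15894 genes tested, 1689 rose (10.6%) and 1770 fell (11.1%), and 656 of those that rose and 595 of those that fell did so by at least 4-fold. Without PIP d3 replicate 3, 2047 of 16333 genes rose (12.5%) and 2431 fell (14.9%), including 1604 of the 1689 and 1724 of the 1770. The median log2 difference over all genes was 0.0282 with all libraries and -0.0107 without replicate 3. In bulk RNA, fewer cells of a type and less RNA per cell cannot be told apart. A gene silent in fibroblasts enters the test only if PIP d3 cells have it, so the list counts below are given out of the whole list. Each stands beside the 10.6% that rose and the 11.1% that fell, which are out of tested genes only. In such shares below, all genes means all genes tested. A list with untested members has another base, so its count and these shares are not directly comparable. A list's median is given only where nearly all of its members were tested.

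The delivered factors were abundant in every PIP d3 library. In the fibroblasts Spi1 and Irf4 were nearly absent, and Prdm1 was low but present. Spi1 was at 443, 474 and 319 CPM in PIP d3 and at 0.882 to 1.32 CPM in C9a.MEF, a log2 difference of 8.55 ± 0.2 (SE, adjusted p = 1.1e-07). Irf4 was at 483, 516 and 404 CPM in PIP d3 and at 0.0881 to 0.294 CPM in C9a.MEF (adjusted p = 1.6e-08). Prdm1 was at 535, 526 and 492 CPM in PIP d3 and at 9.88 to 15.4 CPM in C9a.MEF, a log2 difference of 5.4 ± 0.15 (adjusted p = 2.4e-07). The groups were far apart for all 3 factors, and replicate 3 was only a little lower. Counts cannot separate vector transcripts from endogenous ones, so these levels check the labels only. The factors of the other cocktails were low. Irf8 was at 2.44, 1.59 and 4.13 CPM in PIP d3 and 0.511 to 1.5 CPM in C9a.MEF, a rise (log2 difference 1.41 ± 0.42) that was not called without PIP d3 replicate 1 or C9a.MEF replicate 1 or 4. Batf3 was at 1.17, 1.19 and 1.03 CPM in PIP d3 and 0.166 to 0.294 CPM in C9a.MEF, and Spib at 0.102, 0 and 0.724 CPM in PIP d3. Ikzf2 was at 20, 16.8 and 20.5 CPM in PIP d3, below the fold threshold over C9a.MEF (log2 difference 0.92).

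**Figure D1:**
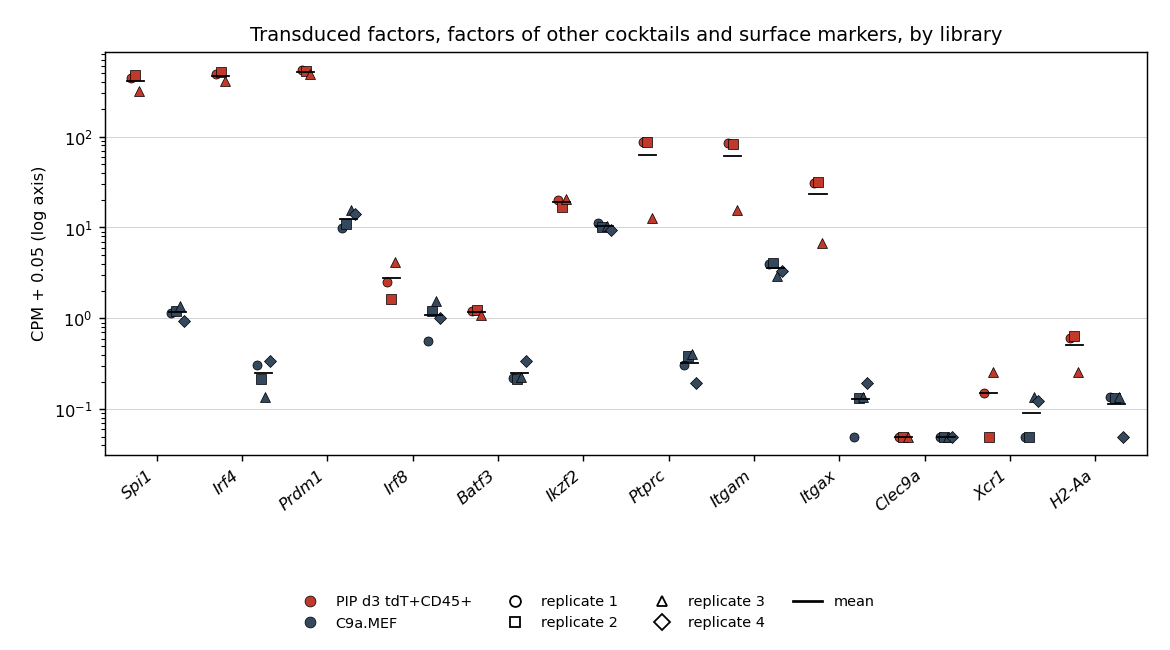
Level of each gene in every library, as CPM plus 0.05 on a log axis, with PIP d3 in red and C9a.MEF in dark blue; symbols mark the replicate and short lines the mean. Spi1, Irf4 and Prdm1 sit above 300 CPM in all 3 PIP d3 libraries, replicate 3 lies below the other 2 for Ptprc, Itgam and Itgax, and Clec9a is at 0 in all 7.

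Of the tdT+CD45+ gate, only CD45 could be read at the RNA level, through Ptprc. The integrins, Xcr1 and H2-Aa given here were not sorted on, and their levels were mixed. Ptprc is what the CD45 gate selects on and is no finding. Itgam, which encodes CD11b, a cDC2 and macrophage integrin, was at 84.6, 82.2 and 15.6 CPM in PIP d3 (log2 difference 4.12 ± 0.57, adjusted p = 0.00079, and 4.55 without replicate 3). Itgax, which encodes CD11c, a dendritic cell integrin, was at 31.1, 31.3 and 6.72 CPM in PIP d3 (adjusted p = 0.00019). Clec9a itself, whose locus drives the Cre of the reporter, had no count in any of the 7 libraries, in which 3 counts would be 0.153 to 0.31 CPM. Xcr1 was at 0.102, 0 and 0.207 CPM and H2-Aa, a class II chain, at 0.559, 0.596 and 0.207 CPM. Both Clec9a alleles carry Cre in this line, so a Clec9a count of 0 cannot say whether the locus was active. So integrin RNA was present on day 3 while RNA of the cDC1 marker Xcr1 was at or near 0.

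Among dendritic and myeloid transcription factors, 15 of 45 rose and 5 fell, with 39 tested (15 and 6 without replicate 3). Etv3, an ETS-family repressor, was at 803, 812 and 625 CPM in PIP d3 against 23.2 to 27.3 CPM in C9a.MEF, a log2 difference of 4.9 ± 0.12 (adjusted p = 1.4e-07). Irf5, which drives inflammatory cytokines in myeloid cells, was at 75.7, 80.1 and 60.1 CPM against 3.82 to 4.23 CPM, and Ikzf1, the lymphoid and dendritic factor Ikaros, at 25.8, 24 and 16.2 CPM against 0.367 to 1.28 CPM. Every PIP d3 library lay above every fibroblast library for these 3 genes. Zbtb46, which marks the conventional dendritic lineage, was at 10.8, 10.6 and 14.7 CPM in PIP d3 against 1.16 to 1.25 CPM in C9a.MEF (log2 difference 3.33 ± 0.18, adjusted p = 5.9e-06). It was highest in replicate 3, unlike most myeloid genes. Cebpb, a factor of macrophages and stressed fibroblasts, fell to 18.5, 21.4 and 51.6 CPM in PIP d3, against 140 to 168 CPM in C9a.MEF (log2 difference -2.32 ± 0.36, and -2.97 without replicate 3). Egr1, an immediate early factor tied to monocytes and to serum response, fell to 19.1, 16.9 and 74.7 CPM, against 145 to 167 CPM (log2 difference -2.09 ± 0.52, and -3.13 without replicate 3). Batf2 and Cbfa2t3 rose, and Stat3, the uncalled member with the highest level, was at 220, 200 and 215 CPM in PIP d3 and 204 to 222 CPM in C9a.MEF, overlapping ranges.

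Cytokine receptors of myeloid cells appeared early. Of 18 receptors, 6 rose and 1 fell, with 13 tested (7 and 1 without replicate 3). Csf2rb, the shared beta chain of the GM-CSF, IL-3 and IL-5 receptors, was at 86.4, 94.6 and 54 CPM in PIP d3 and 0.083 to 0.22 CPM in C9a.MEF (adjusted p = 1.1e-06). Csf2rb2, its mouse paralog, was at 31, 30.9 and 10 CPM in PIP d3; the 2 genes are near-identical copies whose reads may be split between them. Csf1r, the M-CSF receptor, was at 54.1, 51 and 16.8 CPM in PIP d3 and 0.588 to 1.66 CPM in C9a.MEF (log2 difference 5.32 ± 0.52, adjusted p = 0.00016, and 5.66 without replicate 3). Il10ra, the IL-10 receptor chain, was at 64.7, 72.4 and 10.5 CPM in PIP d3. All 4 separated the groups, and replicate 3 was the lowest PIP d3 library for each. Il4ra, the IL-4 receptor chain, fell by 1.01 on the log2 scale, to 87.2 ± 16.9 CPM in PIP d3 (SD, n = 3) against 179 ± 12.7 CPM in C9a.MEF (SD, n = 4), and was not called without PIP d3 replicate 1 (-0.89) or C9a.MEF replicate 3 (-0.98).

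Signalling and actin genes of leukocytes rose in number: 19 of 36 rose and 1 fell, with 25 tested (21 and 1 without replicate 3). Syk, the kinase below Fc and C-type lectin receptors, was at 238, 255 and 109 CPM in PIP d3 and 6.14 to 9.11 CPM in C9a.MEF (log2 difference 4.7 ± 0.32, adjusted p = 2.9e-05). Inpp5d, the SHIP1 phosphatase whose promoter is printed above, was at 62.7, 61.5 and 17.8 CPM in PIP d3 (adjusted p = 7.3e-05). Lcp1, the leukocyte actin bundler L-plastin, was at 79.2, 75.2 and 3.31 CPM in PIP d3 and under 1 CPM in C9a.MEF, a log2 difference of 7.08 ± 1.19 with all libraries and 7.6 without replicate 3. Laptm5, a lysosomal regulator of immune receptors, was at 14, 15.1 and 6.51 CPM in PIP d3. Replicate 3 was the lowest PIP d3 library for both. Arhgdib, a signalling gene also expressed by these fibroblasts, fell to 33.2, 32.2 and 45.5 CPM in PIP d3 against 114 ± 8.46 CPM (SD, n = 4) in C9a.MEF (log2 difference -1.6 ± 0.13). Among 12 adhesion genes 5 rose and 1 fell (8 tested): Selplg, the selectin ligand, was at 28, 34.6 and 6.82 CPM in PIP d3, and the integrin Itgb3 fell to 3.86, 4.57 and 7.03 CPM, against 32.2 to 40.3 CPM in C9a.MEF (log2 difference -2.8 ± 0.2).

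Of the 18 cDC2 markers, 3 rose and 1 fell on day 3, with 10 tested (4 and 1 without replicate 3). Over all genes, 10.6% rose and 11.1% fell. Cd209a, a lectin that marks mouse cDC2 and monocyte-derived dendritic cells, was at 39.8, 43.3 and 16.8 CPM in PIP d3, against 0.083 CPM in 1 fibroblast library and 0 in the other 3 (adjusted p = 1.9e-05). Ccr2, the receptor for Ccl2, was at 39.6, 38.4 and 41 CPM in PIP d3 and 0.0735 to 0.0881 CPM in C9a.MEF (adjusted p = 1.4e-08). Clec12a, an inhibitory lectin, was at 19.3, 15.4 and 27.7 CPM in PIP d3 (adjusted p = 4.6e-06). All 3 were absent or nearly absent in the fibroblasts, and for Ccr2 and Clec12a replicate 3 was no lower than the others. Il1rl1, the IL-33 receptor, fell to 32.5, 28.5 and 40.3 CPM in PIP d3 against 208 to 245 CPM in C9a.MEF (log2 difference -2.75 ± 0.13). Tmem176b was at 252, 261 and 365 CPM in PIP d3 and 273 to 282 CPM in C9a.MEF, with overlapping ranges. The summed levels of the 18 markers, 953 to 1100 CPM in PIP d3 and 936 to 994 CPM in C9a.MEF, also overlapped. Members of the Cd209, Klra and Ifit families are close copies of each other and may share reads.

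Some genes used as cDC1 markers also rose. Of 14 such markers, 7 rose and 1 fell (11 tested), although Xcr1 was at or near 0. Cd36, a scavenger receptor, was at 62.4, 53.8 and 98.9 CPM in PIP d3 (adjusted p = 4.3e-06), and Wdfy4, which is needed for cross-presentation in mice, at 79.3, 87.1 and 8.06 CPM (log2 difference 6.39 ± 0.91, and 6.87 without replicate 3). Cd36 was highest and Wdfy4 lowest in replicate 3. Rab7b, Cadm1 and Naaa rose by 2.61, 2.25 and 1.53 on the log2 scale, and Tlr3, the sensor of double-stranded RNA, fell to 1.98, 1.99 and 1.45 CPM in PIP d3 against 7.58 to 9.96 CPM in C9a.MEF. Of 18 plasmacytoid markers 5 were tested and 3 rose (7 and 6 without replicate 3), beside 10.6% of all genes: Klra17, a lectin-like receptor, was at 11, 13.6 and 8.99 CPM in PIP d3, Pld4, an endosomal nuclease, at 12, 12.9 and 6.62 CPM, and Bst2 (tetherin) at 422, 446 and 216 CPM, against 166 to 177 CPM of Bst2 in C9a.MEF. Bst2 was not called without PIP d3 replicate 1 or 2 (0.98 and 0.89).

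Antigen presentation was uneven: the class II chaperone was raised while the class II chains were low. Cd74, the invariant chain, was at 176, 163 and 24.5 CPM in PIP d3 and 0.083 to 0.441 CPM in C9a.MEF (adjusted p = 0.00021). Ctss, the cathepsin that cuts the invariant chain, was at 36.8, 36.3 and 4.55 CPM in PIP d3 and had no count in any fibroblast library. Against 3 counts over the 4 fibroblast libraries together, 0.0615 CPM, Ctss was at least 421-fold higher by its mean and at least 73.9-fold higher by its lowest library. Replicate 3 was well below the other 2 libraries for both genes. H2-Ab1, a class II beta chain, fell to 0.661, 0.596 and 1.34 CPM in PIP d3, against 2.91 to 5.14 CPM in C9a.MEF (log2 difference -2.13 ± 0.36, adjusted p = 0.0016). H2-Eb1 was at 1.42, 0.895 and 0.517 CPM and Ciita, the class II transactivator, at 4.02, 3.38 and 0.62 CPM in PIP d3; neither was tested with all libraries. In all, 2 of 12 class II genes rose and 1 fell (6 tested), and 3 rose and 2 fell without replicate 3. These counts stand beside 10.6% of all genes higher and 11.1% lower.

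The class I pathway rose more evenly. Of 21 class I genes, all tested, 11 rose and 1 fell, with a median of 1.1 (12 and 1, median 1.24, without replicate 3). H2-K1, a class I heavy chain, was at 678, 659 and 492 CPM in PIP d3 and 259 to 305 CPM in C9a.MEF (log2 difference 1.16 ± 0.12, adjusted p = 0.00011). Nlrc5, the class I transactivator, was at 232, 235 and 134 CPM against 57 to 64.8 CPM (log2 difference 1.74 ± 0.18). Psme1 and Psmb10, parts of the immunoproteasome, rose by 1.93 and 1.85 on the log2 scale. Reads of class I heavy chains may be shared between near-identical genes, H2-Q7 and H2-T22 among them, so the rise of H2-Q7 (1.69) and the fall of H2-T22 (-1.2) are uncertain.

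**Figure D2:**
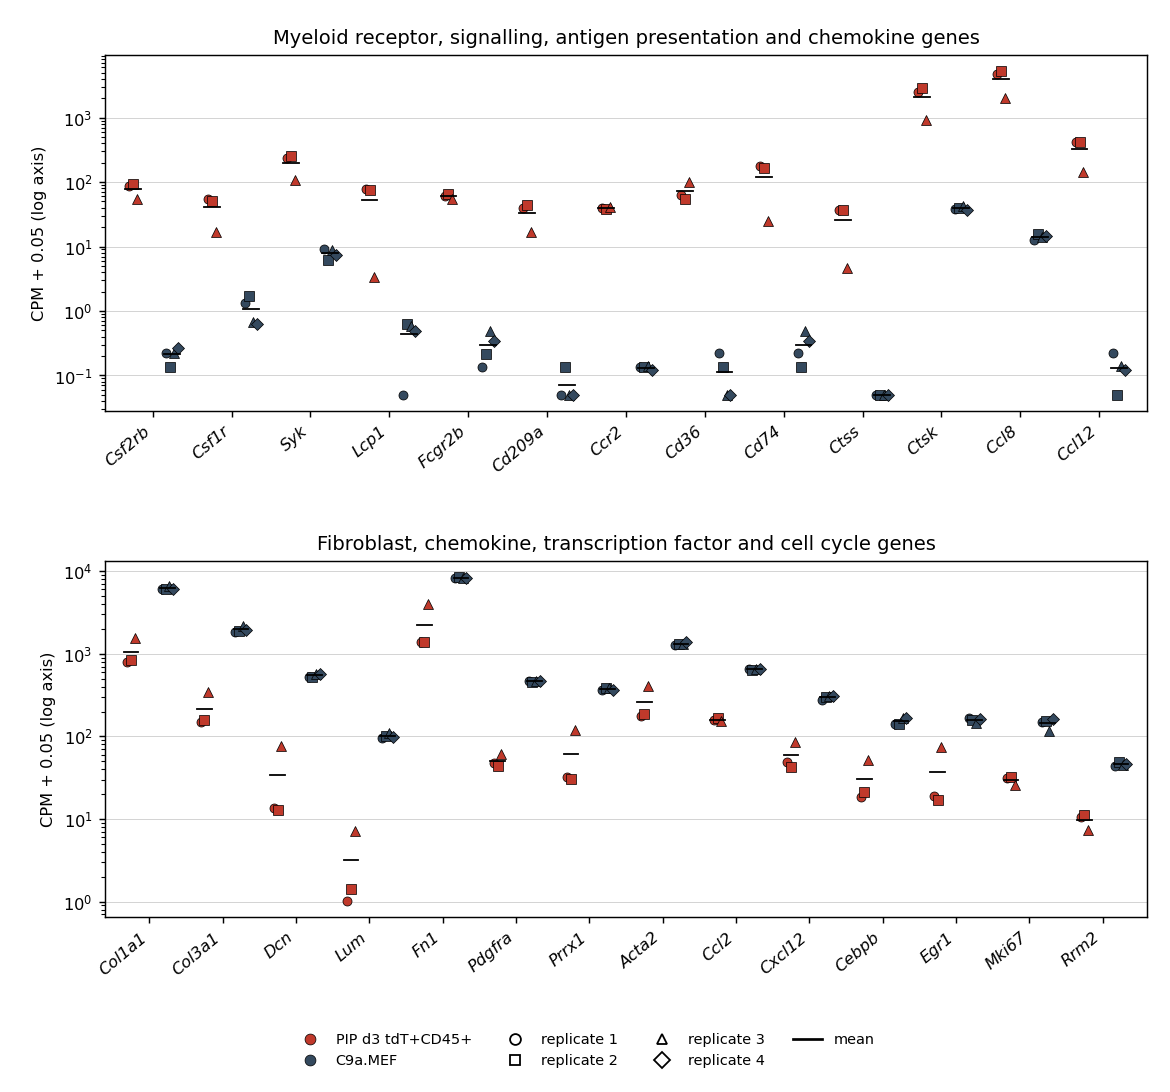
Level of each gene in every library, as CPM plus 0.05 on a log axis, PIP d3 in red left of C9a.MEF in dark blue, symbols by replicate, short lines at the mean. In the upper panel no PIP d3 point reaches down to the fibroblast points, and replicate 3 (triangles) is lowest for Lcp1, Cd74 and Ctss; in the lower panel every PIP d3 point lies below the fibroblast points, and replicate 3 is the highest for Dcn, Lum and Fn1.

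Receptors for microbes and antibodies rose: 10 of 30 were higher and 2 lower, with 14 tested (12 and 2 without replicate 3). Fcgr2b, the inhibitory IgG receptor, was at 61.6, 65.3 and 54.2 CPM in PIP d3 and 0.0851 to 0.441 CPM in C9a.MEF (adjusted p = 2.9e-07). Lilrb4a, an inhibitory receptor of myeloid cells, was at 56.6, 45.3 and 83.6 CPM in PIP d3, and Lilr4b at 148, 140 and 156 CPM; the 2 are close copies. Cd209e, another lectin of the Cd209 family, was at 4.83, 4.47 and 4.24 CPM and at 0 in C9a.MEF, at least 73.3-fold higher by its mean. In Fcgr2b, Lilr4b and Cd209e replicate 3 was close to the other 2 libraries, and in Lilrb4a it was the highest. Fcgr1, the high-affinity IgG receptor, was instead at 1.63, 1.99 and 33.6 CPM, a log2 difference of 5.99 ± 1.42 with all libraries and 3.2 without replicate 3. Tlr2 fell to 9.1, 10.2 and 21.1 CPM in PIP d3 against 23.4 to 75.1 CPM in C9a.MEF (log2 difference -1.93 ± 0.45, adjusted p = 0.01).

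Several lysosomal proteases rose. Of 25 lysosomal genes 12 rose, with 24 tested and a median of 1 (13 rose and 1 fell without replicate 3). Ctsk, a collagen-degrading cathepsin, was at 2540, 2860 and 909 CPM in PIP d3 and 36.3 to 42.9 CPM in C9a.MEF (log2 difference 5.76 ± 0.4, adjusted p = 3.1e-05). Ctsd, the aspartyl protease of the lysosome, was at 5380, 6000 and 2500 CPM against 647 to 721 CPM, and Lgmn, legumain, at 875, 939 and 321 CPM against 88.1 to 96.1 CPM. Psap, the saposin precursor, had a log2 difference of 0.81 ± 0.06, below the fold threshold. All 3 PIP d3 libraries exceeded all fibroblast libraries for the 3 proteases, with replicate 3 lowest.

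Macrophage and monocyte markers rose too. Of 28 markers, 13 rose and 1 fell, with 15 tested (16 and 1 without replicate 3), and their summed level was 719, 754 and 518 CPM in PIP d3 replicates 1, 2 and 3 and 258 to 269 CPM in C9a.MEF, replicate 3 being the lowest. Mpeg1, perforin-2, was at 169, 186 and 51.8 CPM in PIP d3 and 3.73 to 4.56 CPM in C9a.MEF (log2 difference 5.05 ± 0.45, adjusted p = 9.9e-05). Timd4, a phosphatidylserine receptor whose promoter is printed above, was at 13.1, 11.6 and 10.9 CPM in PIP d3 and 0 in C9a.MEF, at least 193-fold higher by its mean. Lyz2, lysozyme, was at 15.6, 16.3 and 0.103 CPM in PIP d3, so its level rested on replicates 1 and 2. Adgre1, which encodes F4/80, was at 1.02, 1.59 and 0.207 CPM, untested with all libraries and called higher without replicate 3 (5.39). Apoe fell to 7.02, 8.95 and 7.65 CPM in PIP d3 against 16.4 to 24.1 CPM in C9a.MEF (log2 difference -1.35 ± 0.15), and Gpnmb was at 167, 170 and 93.2 CPM against 129 to 138 CPM, with the PIP d3 libraries on both sides of the fibroblasts. The part of these markers in other results was not tested.

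Chemokines went both ways. Of 23, 9 rose and 7 fell, with 19 tested (10 and 8, with 21 tested, without replicate 3). Ccl8 (MCP-2), made by macrophages and dendritic cells, was at 4760, 5320 and 2020 CPM in PIP d3 and 12.8 to 15.4 CPM in C9a.MEF (log2 difference 8.17 ± 0.38, adjusted p = 5.4e-06). Ccl12 was at 411, 419 and 143 CPM in PIP d3 and 0 to 0.17 CPM in C9a.MEF (adjusted p = 1.3e-05), and Cxcl16, which draws CXCR6-bearing T cells, at 518, 568 and 273 CPM against 17.9 to 20.1 CPM. These 3 were high in every PIP d3 library, replicate 3 being lowest. Ccl17, a ligand of CCR4 made by mouse cDC2, was at 8.44, 8.25 and 1.03 CPM in PIP d3 and 0 in C9a.MEF, at least 96-fold higher by its mean. Among those that fell, Cxcl5, a neutrophil attractant, was at 6.15, 6.46 and 26.3 CPM in PIP d3 and 209 to 249 CPM in C9a.MEF (log2 difference -4.13 ± 0.54, and -5.17 without replicate 3). Cxcl12, a stromal attractant of progenitors, was at 48.6, 42.7 and 84.9 CPM against 273 to 308 CPM, a log2 difference of -2.31 ± 0.23. Ccl2, the ligand of CCR2, was at 158, 167 and 154 CPM against 643 to 661 CPM (log2 difference -2.01 ± 0.07, adjusted p = 6.3e-07). Ccl2 thus fell equally in all 3 libraries while its receptor Ccr2 was raised equally in all 3. Among the chemokine receptors, Ccr1 rose and Ackr3, a scavenger of CXCL12, fell.

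Of 25 cytokine genes, 4 rose and 3 fell (12 tested), and 6 and 4 without replicate 3. With all libraries, 10.6% of all genes tested rose and 11.1% fell. Only 12 of the 25 cytokine genes were tested, so their counts and these shares have unlike bases. Il1b, the inflammasome cytokine, was at 9.81, 9.74 and 10.1 CPM in PIP d3 and 0 to 0.176 CPM in C9a.MEF (adjusted p = 1.5e-05). Ifnb1, which encodes interferon beta, was at 7.12, 8.45 and 2.79 CPM in PIP d3 and 0 to 0.264 CPM in C9a.MEF (adjusted p = 0.00021). Both were low but clear of the fibroblasts in every library. Il6 fell to 1.22, 1.19 and 3.2 CPM in PIP d3, against 7.75 to 9.52 CPM in C9a.MEF (log2 difference -2.23, and -2.83 without replicate 3). Among 18 costimulation and checkpoint genes, 5 rose and 3 fell (13 tested), and 7 and 3 without replicate 3. Cd40, through which T cells license dendritic cells, was at 81.9, 87.3 and 22.9 CPM in PIP d3 and 5.36 to 7.88 CPM in C9a.MEF (log2 difference 3.32 ± 0.44, adjusted p = 0.00068). Cd80, a CD28 ligand, fell to 0.915, 0.696 and 1.24 CPM in PIP d3 against 10.1 to 11.5 CPM in C9a.MEF (log2 difference -3.49 ± 0.2), and Havcr2, which encodes TIM-3, was at 71, 65.3 and 14.1 CPM in PIP d3.

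Interferon-stimulated genes split. Of 34, all tested, 10 rose and 7 fell, with a median of 0.475 (13 and 7, median 0.676, without replicate 3). Mx1, an antiviral GTPase, was at 107, 112 and 58.9 CPM in PIP d3 and 4.04 to 7.83 CPM in C9a.MEF (log2 difference 4.02 ± 0.29, adjusted p = 3.2e-05). Ifit2 was at 979, 1010 and 123 CPM against 65.4 to 81.4 CPM (log2 difference 3.28 ± 0.62, and 3.76 without replicate 3). Its neighbour in the same family, Ifit3, fell to 98.4, 101 and 89.6 CPM against 307 to 332 CPM (log2 difference -1.7 ± 0.07, adjusted p = 1.7e-06). Ifit2 and Ifit3 thus went opposite ways in all 3 libraries. Gbp2, a guanylate-binding protein, fell to 26.2, 33.7 and 16.3 CPM in PIP d3 against 80.9 to 98.8 CPM in C9a.MEF. The summed level of the 34 genes was 6540, 6700 and 3260 CPM in PIP d3 replicates 1, 2 and 3 and 3590 to 3790 CPM in C9a.MEF, so replicate 3 lay below the fibroblasts and the other 2 above.

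Fibroblast matrix genes fell together. Of 30 collagen and collagen-processing genes, all tested, 21 fell and 2 rose, with a median of -1.64 (21 and 2, median -1.85, without replicate 3). Col1a1 fell to 790, 846 and 1530 CPM in PIP d3, against 6000 to 6670 CPM in C9a.MEF (log2 difference -2.53 ± 0.24, adjusted p = 9.8e-05). Col3a1 fell to 151, 157 and 343 CPM against 1830 to 2190 CPM (log2 difference -3.15 ± 0.32, and -3.68 without replicate 3), and Col12a1 to 224, 233 and 1020 CPM against 4180 to 4360 CPM (-3.09, and -4.23 without replicate 3). These interstitial collagens fell in every library, least in replicate 3. Col4a2, a chain of basement membrane collagen, went the other way, to 1810, 1970 and 1260 CPM in PIP d3 against 795 to 883 CPM in C9a.MEF. Its log2 difference of 1.02 ± 0.14 was just past the fold threshold, and it was not called without PIP d3 replicate 1 or 2 or C9a.MEF replicate 1. Of 34 other matrix genes 27 fell, with a median of -2.1 (28 fell, median -2.69, without replicate 3). Lum, the collagen-binding lumican, fell to 0.966, 1.39 and 7.13 CPM in PIP d3, a log2 difference of -5.12 ± 0.58 with all libraries and -6.5 without replicate 3. Dcn, decorin, fell to 13.7, 12.7 and 76.9 CPM against 528 to 566 CPM (log2 difference -3.98 ± 0.69, and -5.36 without replicate 3). Fn1, fibronectin, fell to 1390, 1400 and 3950 CPM against 8250 to 8490 CPM (log2 difference -1.86 ± 0.38, and -2.58 without replicate 3), and Sparc was not called.

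Receptors, factors and contractile genes of mesenchymal cells fell as well. Of 30 mesenchymal surface genes 16 fell and 1 rose (all tested, median -1.26), and 17 and 1 without replicate 3. Pdgfra, the platelet-derived growth factor receptor that marks fibroblasts, fell to 47.3, 44.1 and 61.1 CPM in PIP d3, against 459 to 474 CPM in C9a.MEF (log2 difference -3.17 ± 0.12, adjusted p = 1.3e-06). Here replicate 3 was close to the other 2 libraries. Ly6a, a surface antigen of progenitors and of interferon response, was the 1 that rose, at 456, 422 and 175 CPM in PIP d3 against 99 to 115 CPM in C9a.MEF (log2 difference 1.73 ± 0.29). Of 43 mesenchymal transcription factors 16 fell (41 tested, median -0.89), and 24 of 42 tested fell without replicate 3, the largest such shift in number of genes among the 40 lists. Prrx1, a master factor of fibroblasts, fell to 32.1, 30.7 and 120 CPM in PIP d3 against 368 to 382 CPM in C9a.MEF (log2 difference -2.6 ± 0.5, and -3.58 without replicate 3), and Tead2, a partner of YAP, to 2.85, 3.58 and 17 CPM against 53.2 to 61.8 CPM (-2.89, and -4.17 without replicate 3). Of 20 contractile genes 9 fell (all tested, median -0.735). Acta2, smooth muscle actin, fell to 177, 185 and 412 CPM in PIP d3 against 1280 to 1400 CPM in C9a.MEF (log2 difference -2.34 ± 0.31), while non-muscle myosin Myh9 was not called.

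**Figure D3:**
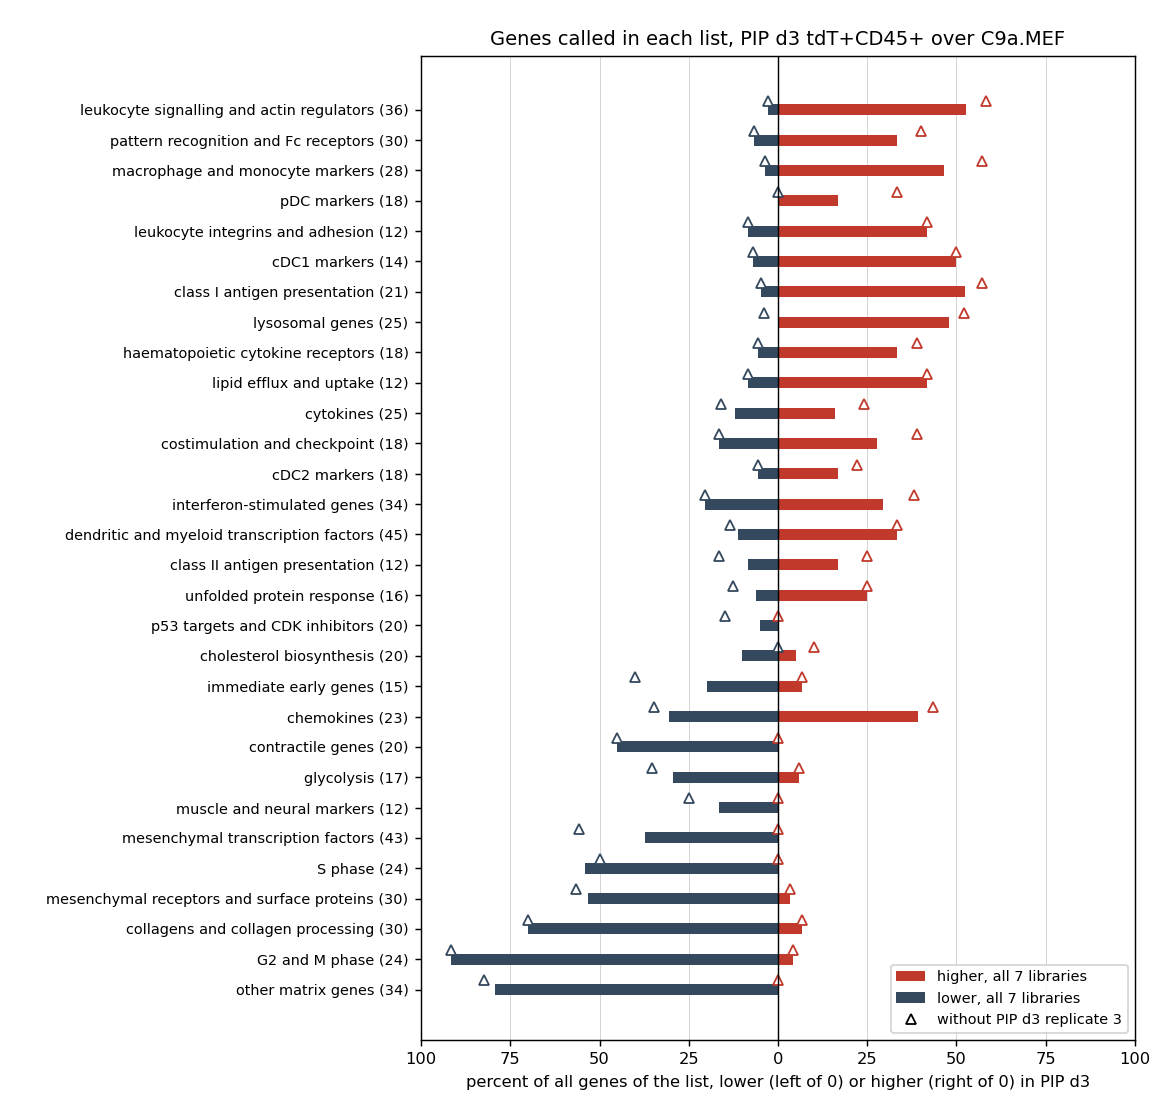
For each list with at least 5 tested genes, the percent of all its genes that rose (red, right of 0) or fell (dark blue, left of 0) in PIP d3 over C9a.MEF; the number of genes is in parentheses and open triangles give the same without PIP d3 replicate 3. Leukocyte signalling has 19 of 36 raised and matrix genes 27 of 34 lowered, and without replicate 3 these are 21 of 36 and 28 of 34.

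Cell cycle genes were lower in the sorted cells. Of 24 G2 and M phase genes 22 fell and 1 rose (all tested, median -1.83), and of 24 S phase genes 13 fell (median -1.1; 12 without replicate 3). Mki67, which encodes the proliferation antigen Ki-67, fell to 31.6, 32.3 and 26 CPM in PIP d3 against 115 to 163 CPM in C9a.MEF (log2 difference -2.24 ± 0.14, adjusted p = 1.2e-05). Rrm2, a ribonucleotide reductase subunit of S phase, fell to 10.5, 11.1 and 7.24 CPM against 43.5 to 48.6 CPM (log2 difference -2.22 ± 0.14). For both, replicate 3 was the lowest and farthest from the fibroblasts, the reverse of its place in matrix genes. Cenpa, the centromeric histone, was the 1 G2 and M gene that rose, at 58.9, 58.5 and 24.8 CPM in PIP d3 against 8.9 to 11.3 CPM in C9a.MEF (log2 difference 2.28 ± 0.29). Of 20 p53 targets and cell cycle inhibitors 1 fell, Cdkn1c (median -0.245), and 3 fell without replicate 3. Ccng1, a p53 target, was at 626, 682 and 674 CPM in PIP d3 and 519 to 574 CPM in C9a.MEF, below the fold threshold.

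Stress and metabolic genes changed in smaller groups, beside 10.6% of all genes higher and 11.1% lower. Of 16 genes of the unfolded protein response 4 rose and 1 fell (median -0.005), and 4 and 2 without replicate 3: Atf3, a stress-induced factor, was at 17.4, 18.3 and 14.1 CPM in PIP d3 and 1.4 to 3.88 CPM in C9a.MEF (log2 difference 2.63 ± 0.29), and Chac1, Herpud1 and Edem1 rose with it. Of 15 immediate early genes 1 rose and 3 fell (median -0.57), 6 falling without replicate 3; Fos, the member that rose, had a log2 difference of 1.03 and was not called without PIP d3 replicate 2 (0.86) or C9a.MEF replicate 3 (0.98). Of 12 genes of lipid efflux and uptake 5 rose and 1 fell (11 tested, median 0.75). Abca1, the cholesterol exporter, was at 526, 552 and 255 CPM in PIP d3 and 115 to 126 CPM in C9a.MEF (log2 difference 1.93 ± 0.24, adjusted p = 0.00044), and Abcg1, which exports cholesterol to HDL, was at 182, 197 and 61.1 CPM against 22.1 to 24.1 CPM (2.69 ± 0.36). Cholesterol synthesis genes were mostly not called: of 20, 1 rose and 2 fell (median -0.37), and the falls of Sqle and Hmgcs1 were not called without replicate 3 (-0.94 and -0.81), which left 2 raised. Of 17 glycolysis genes 1 rose and 5 fell (median -0.78; 1 and 6 without replicate 3), among them Slc2a1, the glucose transporter GLUT1 (log2 difference -1.53 ± 0.1).

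Few markers of other lineages were called. None of 12 granulocyte and mast cell markers was tested, and they summed to 1.59 to 3.41 CPM in PIP d3 and 0.735 to 1.28 CPM in C9a.MEF. The 14 T and NK cell markers summed to 4.37 to 6.3 CPM in PIP d3 and 3.41 to 4.19 CPM in C9a.MEF, and 1 of them was tested and not called. Of 9 B cell markers 2 were tested: Pax5, the B cell commitment factor, rose to 4.83, 4.47 and 1.86 CPM in PIP d3 against 0.249 to 0.808 CPM in C9a.MEF (log2 difference 2.73 ± 0.45), and Ebf1, which fibroblasts also make, fell to 6.05, 5.86 and 13.3 CPM against 41.8 to 47.2 CPM (-2.42 ± 0.28). The 10 erythroid and platelet markers summed to 6.05 to 10.5 CPM in PIP d3 and 4.98 to 8.01 CPM in C9a.MEF, with overlapping ranges. Of these markers 2 were tested, and 1 was called lower without replicate 3. Endothelial markers summed to 234, 244 and 114 CPM in PIP d3 replicates 1, 2 and 3, which lay above, above and below the 138 to 153 CPM in C9a.MEF. Of 9 epithelial markers 1 rose, Krt18, and of 12 muscle and neural markers 2 fell, Tubb3 and Acta1. Without replicate 3, 2 epithelial markers rose and 3 muscle and neural markers fell.

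Among all genes at 10 CPM or more, those with the largest fitted rise were Ccl12, Ctss, Irf4, Ms4a6d, Lilr4b, Timd4, Cd209a, Nxpe5, Cd36 and Nppc. Ms4a6d, a membrane protein of myeloid cells, was at 18, 19.2 and 11.4 CPM in PIP d3 and 0 in C9a.MEF, at least 263-fold higher by its mean. Nppc, which encodes the peptide CNP, was at 88.4, 88.5 and 87.8 CPM in PIP d3 and 0 to 0.249 CPM in C9a.MEF. The 3 PIP d3 libraries held nearly equal levels of Nppc. Those with the largest fall were Reg3g, Egfl6, Agtr2, Aspn, Chl1, Lum, Mfap4, Ly9, Cdo1 and Ptn. Agtr2, the angiotensin receptor of developing mesenchyme, fell to 0.203, 0 and 1.96 CPM in PIP d3 against 40.9 to 49.6 CPM in C9a.MEF. Ptn, the growth factor pleiotrophin, fell to 5.14, 4.97 and 57 CPM against 522 to 591 CPM, a log2 difference of -4.61 with all libraries and -6.74 without replicate 3. Ly9, a leukocyte receptor, was at 74 CPM in C9a.MEF replicate 4 against 2.47 to 7.84 CPM in the other 3. Its log2 difference of -4.95 became -3.02 without that library and was still called. Ly9 was not called without PIP d3 replicate 1, 2 or 3.

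By day 9 the same gate had moved further from the fibroblasts in some genes and not in others. This comparison shares the PIP d3 libraries with the one above, so the values are set side by side only. Of 15823 genes tested, 515 were higher (3.25%) and 467 lower (2.95%) on day 9 than on day 3. Without PIP d3 replicate 3 the counts were 658 and 503 of 16475. Cd209a was at 16.8 to 43.3 CPM on day 3, 236 to 276 CPM on day 6 and 431 to 468 CPM on day 9, and its log2 difference between day 9 and day 3 was 3.75 ± 0.3 (adjusted p = 0.00029). Cd209e was at 4.24 to 4.83 CPM on day 3, at least 99.2 CPM in each library of day 6 and 198 to 240 CPM on day 9, with a log2 difference of 5.6 ± 0.11 (adjusted p = 8.2e-08). The lectins thus stood higher at each later day, with no overlap between days. Of 12 class II genes 3 were higher on day 9, H2-Ab1, H2-Eb1 and Ctss, and 6 without PIP d3 replicate 3. H2-Eb1 was at 19 to 26.4 CPM on day 9 and 0.517 to 1.42 CPM on day 3 (4.48 ± 0.27, adjusted p = 4e-05). H2-K1 was higher on day 9 by 2.01 ± 0.13 on the log2 scale. Ccl8 was at 8420 to 9460 CPM on day 9 (1.18 ± 0.29) but was not called without PIP d3 replicate 3 (0.86). Cd74 had a log2 difference of 1.49 ± 0.56 that was not called, and one of 1.01 that was called without replicate 3.

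**Figure D4:**
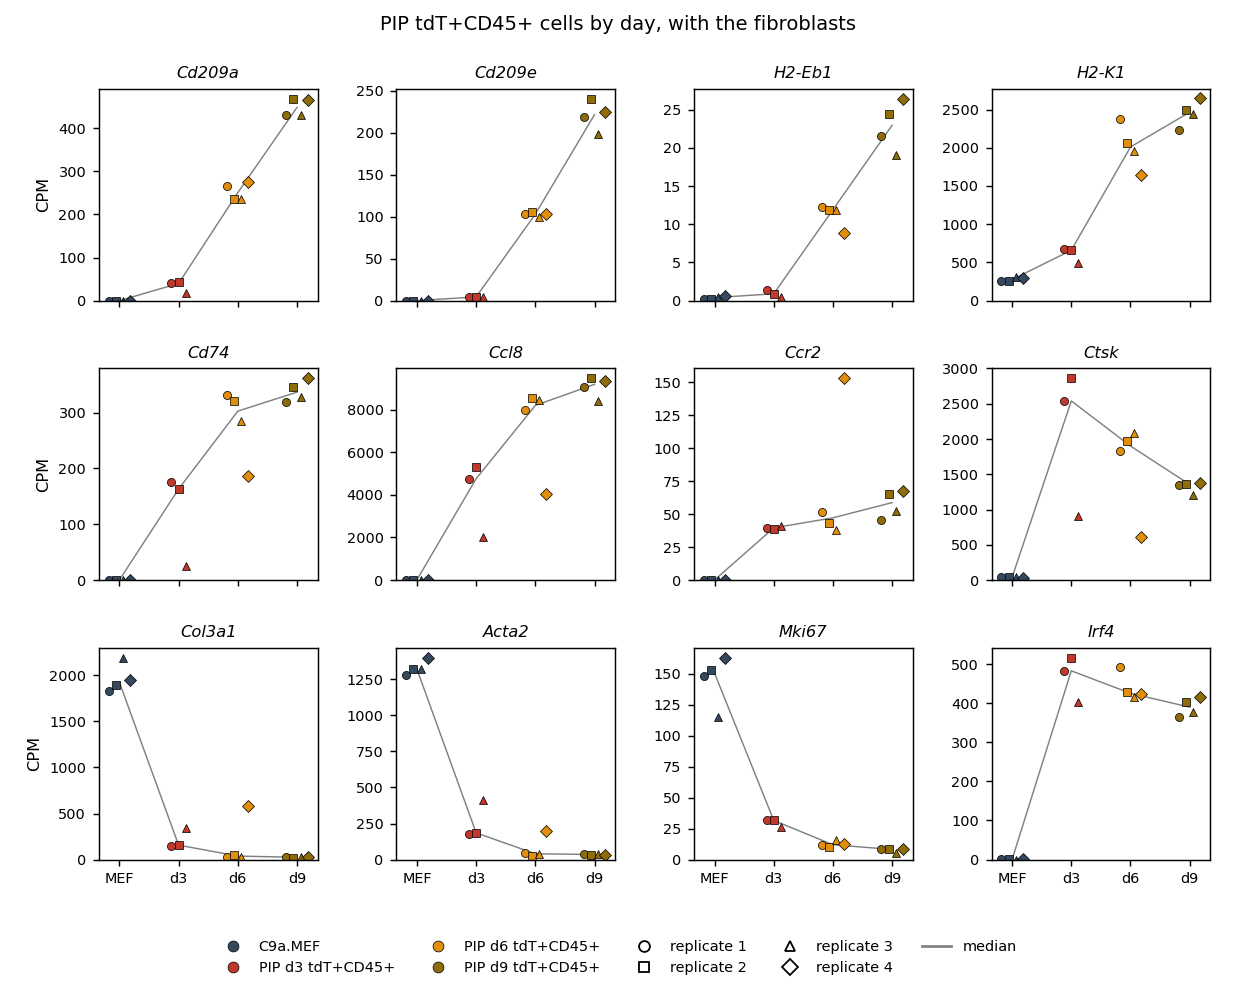
Level in CPM of 12 genes in every library of C9a.MEF and of PIP tdT+CD45+ cells on day 3, day 6 and day 9, symbols by replicate, grey lines through the medians. Cd209a, Cd209e and H2-Eb1 are higher at each later day, Irf4 does not pass the threshold between day 3 and day 9, and replicate 3 on day 3 and replicate 4 on day 6 sit apart for Ctsk and Col3a1.

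Fibroblast and cycle genes were lower still on day 9. Col3a1 was at 21 to 27.4 CPM on day 9 and 151 to 343 CPM on day 3 (log2 difference -3.15 ± 0.32, and -2.64 without PIP d3 replicate 3), and Acta2 had a difference of -2.88 ± 0.33 (-2.35 without it). Mki67 had a difference of -1.96 ± 0.16 (adjusted p = 0.00016). By list, 15 of 34 matrix genes, 12 of 30 collagen genes and 15 of 24 G2 and M genes were lower on day 9 (14, 10 and 18 without replicate 3). Of the raised lists, 11 of 36 signalling genes, 10 of 28 macrophage markers and 9 of 30 pattern recognition and Fc receptors were higher on day 9 (12, 9 and 9 without replicate 3). The transduced factors had log2 differences of -0.31 for Spi1, -0.26 for Irf4 and -0.4 for Prdm1 and none passed the fold threshold. Zbtb46 was at 10.8 to 14.1 CPM on day 9 and 10.6 to 14.7 CPM on day 3, a log2 difference of 0.07 ± 0.17. Ctsk was at 1200 to 1380 CPM on day 9 and was not called over day 3 (-0.66 ± 0.33), whereas without replicate 3 it was called lower (-1.01).

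Against PIB cells of the same day and gate, which received Spi1 with Irf8 and Batf3, PIP d3 cells had 970 genes higher (6.05%) and 865 lower (5.39%) of 16038 tested. Without PIP d3 replicate 3 the counts were 1136 and 1098 of 17700. Cd209a, at 16.8 to 43.3 CPM in PIP d3, had no count in the 4 PIB libraries, and Xcr1, at 0 to 0.207 CPM in PIP d3, was at 112 ± 6.52 CPM (SD, n = 4) in PIB (adjusted p = 4.2e-07). These 2 genes separated the cocktails completely, but the marker lists did not. Of 18 cDC2 markers 2 were higher in PIP d3 than in PIB and 3 lower (1 and 2 without PIP d3 replicate 3). Their summed levels were 953 to 1100 CPM in PIP d3 and 1390 to 1570 CPM in PIB. Of 14 cDC1 markers 2 were higher in PIP d3 and 3 lower (2 and 4 without replicate 3). Ccl11, eotaxin, was at 109, 118 and 176 CPM in PIP d3 and 0.284 to 1.11 CPM in PIB (log2 difference 7.64 ± 0.37), and Cd40 was higher by 3.82 ± 0.44. Class II genes were lower: 5 of 12 fell below PIB, among them H2-Ab1 at 0.596 to 1.34 CPM in PIP d3 against 14.9 to 22.8 CPM in PIB (-4.48 ± 0.31) and Ciita at 0.62 to 4.02 CPM against 20.8 to 24.1 CPM (-3.03 ± 0.44). Arg1, arginase, was at 0.497 to 0.864 CPM in PIP d3 and 54.4 to 71.2 CPM in PIB. Clec12a was lower than in PIB by 2.33 ± 0.2 on the log2 scale, Zbtb46 higher by 4.21 ± 0.46, and Ccr2, at 38.4 to 41 CPM in PIP d3, had a log2 difference of -0.83 that missed the fold threshold. Spi1 itself, shared by both cocktails, was higher in PIP d3 by 1.38 ± 0.17 (adjusted p = 0.0005), so the level of the shared factor differed too. The calls of Cd209a, Xcr1, Ccl11, Cd40, H2-Ab1, Ciita, Clec12a, Zbtb46 and Spi1 were kept without PIP d3 replicate 3.

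Against SII cells, which received Spib, Irf8 and Ikzf2, PIP d3 cells had 1049 genes higher (6.53%) and 790 lower (4.92%) of 16059 tested, and 1125 and 858 without SII replicate 2. Without PIP d3 replicate 3 the counts were 1236 and 980 of 16957. Ccl8, at 2020 to 5320 CPM in PIP d3, was at 0.32 to 5.79 CPM in SII (log2 difference 10.19 ± 0.76), and Ctsk, at 909 to 2860 CPM, was at 1.28 to 3.89 CPM (9.39 ± 0.55, adjusted p = 0.00011). Both were below the fibroblast level in SII and far above it in PIP d3. Of 34 interferon-stimulated genes 27 were higher in PIP d3, with a median of 2.02 beside -0.057 over all genes. The count was 24 without PIP d3 replicate 3 and 26 without SII replicate 2. These 34 genes summed to 628 to 1970 CPM in SII, below the 3590 to 3790 CPM in C9a.MEF. In PIP d3 they summed to 3260 to 6700 CPM. Ifit3, which fell against the fibroblasts, was at 89.6 to 101 CPM in PIP d3 and 11.8 to 55.7 CPM in SII (1.66 ± 0.4, adjusted p = 0.024). Of 23 chemokines 9 were higher (12 without PIP d3 replicate 3), and of 16 genes of the unfolded protein response 9 were higher. The chemokines summed to 216 to 485 CPM in SII, 1760 to 1860 CPM in C9a.MEF and 3180 to 6990 CPM in PIP d3. Genes of the unfolded protein response summed to 1490 to 1910 CPM in SII, 3060 to 3270 CPM in C9a.MEF and 2340 to 3160 CPM in PIP d3. Ccr2 was higher than in SII by 5.88 ± 0.48 and Zbtb46 by 2.37 ± 0.51 (3 without SII replicate 2), and both were called without either doubted library. Cd74 had a log2 difference of 0.37 ± 0.71 and was not called (adjusted p = 0.77) with all libraries, and 0.14 without SII replicate 2.

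**Figure D5:**
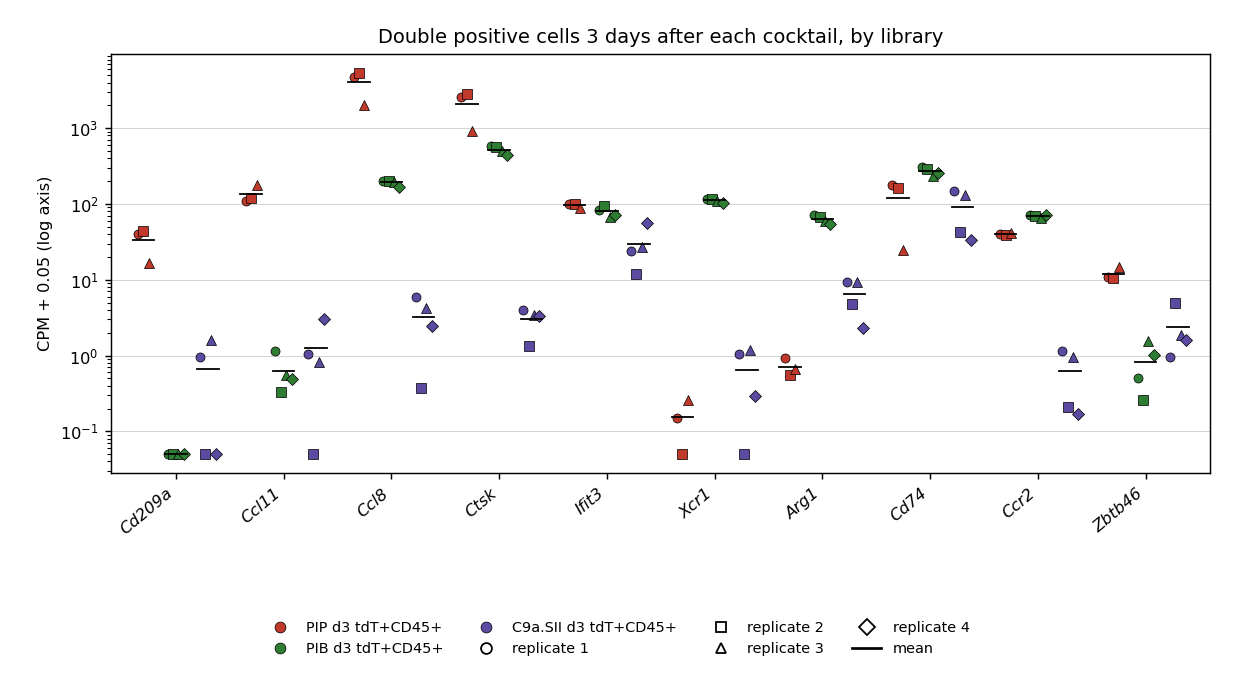
Level of 10 genes in every library of PIP d3 (red), PIB d3 (green) and SII d3 (purple) tdT+CD45+ cells, as CPM plus 0.05 on a log axis, symbols by replicate and short lines at the mean. Cd209a is at 0 in all 4 PIB libraries, Xcr1 is above 100 CPM in PIB only, and Ccl8 and Ctsk are highest in PIP d3 and lowest in SII.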

How the data were processed

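Counts per Ensembl gene were deposited by the authors as whole numbers for 57010 identifiers; STAR 2.7.9a, Salmon 1.10.1 and the build mm10 are named in the submitters' processing notes, and the annotation and strand setting are not given in the sources used here. Names were found for 52029 identifiers, and the other 4981, 8.72 to 32.1% of counts, stayed in the fits. Most of that share was 1 unnamed identifier, the same in every library. It took 9.34 to 9.47% of counts in C9a.MEF, 10.3 to 14.2% in PIP d3 and 30.1% in PIB replicate 3. Groups came from titles and sort labels, and the table's other 144 columns were not used. The members and the 40 gene lists (782 genes) were chosen with earlier results of these data known. Each comparison was fitted on its own libraries in edgeR 4.0.16 (R 4.3.3) with filterByExpr, TMM factors and the quasi-likelihood test, and p-values were adjusted by Benjamini-Hochberg over all genes tested. The main comparison had 5 residual degrees of freedom. CPM were scaled by TMM factors computed over the 23 libraries. A fitted log2 difference of a gene at or near 0 in a group depends on the prior count, so levels are given for such genes instead, and intervals and floors cover counting error only.

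Genes were named by rule, starting with the factors and with Ptprc and the surface markers listed with it. Per list, up to 5 called members with the largest change and no overlap between groups were added. So were at most 2 called the opposite way and the uncalled member with the highest level. The 10 highest and 10 lowest of all called genes at 10 CPM or more completed the rule. Other named genes, such as Col1a1, Fn1, Syk, Ccl2, Cxcl12, H2-K1, H2-Eb1, H2-Aa, Ciita, Lyz2, Adgre1, Ifit3, Ccl11 in the comparison with PIB, and Arg1, were chosen after their values were seen, and some genes the rule names are not reported here. On simulated counts for the main comparison (15578 genes), calls were made for 83.8% of genes given a 4-fold change. The rates were 36.5% for genes given a 2-fold change and 0.013% for those left unchanged. A call needs an estimate of 2-fold or more, which limits the rate for a true 2-fold change. Few genes were changed and counts were drawn independently, with no library shifted as PIP d3 replicate 3 was. These are therefore not error rates for the real data. Alternatives were DESeq2 1.42.0 (Wald test and size factors), no low-count filter, a replicate block, 1 fit over 6 groups, unnamed identifiers left out, and each library left out in turn; results without PIP d3 replicate 3 and SII replicate 2 are drawn from these.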

Additional observations from a re-analysis of the deposited data

Results flagged for a closer look

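In groups of 4 libraries, 253 pairs of a named gene and a group were screened for a library far from the other 3, and 15 stood out. Pairs with every library under 1 CPM are in the 253 but could not stand out. Fcgr1 in PIP d6, PIP d9, PIB and SII was added to the screen by choice. The 15 therefore cannot be set against the chance rate of about 1 in 20. Fcgr1, already high in PIP d3 replicate 3, was at 40.8 CPM in PIP d6 replicate 4 against 2.4 to 3.1 CPM in the others of its group, at 8.63 CPM in SII replicate 2 against 0.12 to 0.492 CPM, and at 0.69 CPM in PIP d9 replicate 3 against 1.61 to 1.74 CPM. The cause was not tested. In C9a.MEF, Ly9 was at 74 CPM in replicate 4, against 2.47 to 7.84 CPM in the others. The other fibroblast libraries that stood out differed by little: Rab7b at 12.5 CPM against 15.6 to 16 CPM, Cadm1 at 3.92 CPM against 4.92 to 5.11 CPM, Psmb9 at 3.82 CPM against 5.11 to 5.36 CPM, Csf1 at 408 CPM against 427 to 430 CPM, Parp14 at 90 CPM against 101 CPM or more, and Tead1 at 346 CPM against 387 to 388 CPM. Nt5e at 9.87 CPM against 8.13 to 8.38 CPM, Ube2c at 20.4 CPM against 17.5 to 17.7 CPM and Soat1 at 102 CPM against 85.4 to 87.1 CPM were the high ones. Cemip was at 9.39 CPM in PIP d9 replicate 1 against 6.21 to 6.7 CPM, and Tmprss11d at 0.799 CPM in SII replicate 2 against 21.4 to 25.5 CPM.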

How the results depend on the processing

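With each library left out in turn, genes higher in PIP d3 over C9a.MEF numbered 1515 to 2047 and genes lower 1528 to 2431. The ranges were 368 to 658 and 243 to 503 for day 9 over day 3, 836 to 1136 and 671 to 1098 for PIP over PIB, and 717 to 1236 and 362 to 980 for PIP over SII. The low ends moved by over 1.5 times without PIP d9 replicate 1, 2 or 4 (308, 243 and 279 lower on day 9) and without PIP d3 replicate 1 or 2 (365 and 362 lower than in SII). Restricted to genes at 10 CPM or more, the counts were 1019 and 987 over C9a.MEF, 272 and 228 for day 9, 486 lower than in PIB and 501 lower than in SII. Without a low-count filter 783 genes were lower on day 9 and 1508 higher than in PIB. Deviations of same-numbered libraries were correlated at -0.0605 to -0.046 with C9a.MEF and 0.0296 to 0.151 with day 9. They were correlated at -0.188 to 0.272 with PIB and -0.378 to 0.271 with SII. Differently numbered pairs were not compared, so whether shared numbers pair the samples cannot be told. With the number as a replicate block, 1392 and 1555 genes were called over C9a.MEF, 341 and 190 for day 9, 681 and 649 over PIB and 775 and 520 over SII. DESeq2 called 1703 and 1810 over C9a.MEF. The causes of these shifts were not tested. Of 219 named genes 188 kept their direction and call under every alternative. Those whose sign turned were all uncalled: Stat3 (0 under the block; -0.04 to 0.02 with a library left out; 0.01 in 2 cases), Tmem176b (-0.11 to 0.21), Gpnmb (-0.03 to 0.34) and Cd3e (-0.18 to 0.2, once -0.02). Leaving out PIP d3 replicate 3 moved the fitted change of 28 of 184 called genes by over 1.5 times, and leaving out any other library moved 0 to 4. Fitted changes of genes near 0 in C9a.MEF, such as Cd209a, Cd36 and Il1b, moved with single fibroblast libraries.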

Other observations

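Some raised genes of PIP d3 cells went against the usual place of replicate 3, and others followed it. Fcgr1 and Cd36 were highest in replicate 3, as were Lilrb4a and Clec12a, against its usual place. Lyz2, Lcp1, Wdfy4 and Ccl17 were lowest there, as most raised listed genes were. Dnase1l3, a nuclease of dendritic cells and macrophages, was at 116, 118 and 18.5 CPM in PIP d3 and 0.0735 to 0.264 CPM in C9a.MEF, and at 43.1 CPM in PIP d6 replicate 4 against 180 to 257 CPM in the other day 6 libraries. Clic5, a chloride channel protein, was at 84.3, 93.5 and 11.1 CPM in PIP d3 and 14.1 CPM in PIP d6 replicate 4 against a median of 112 CPM in the other 3 day 6 libraries. Nppc and Cd209a were not low in PIP d6 replicate 4, at 159 and 276 CPM, against 132 to 140 CPM and 236 to 265 CPM in the other 3. These genes were chosen after their values were seen.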
